A study of Rattus norvegicus with 12 samples.

Results

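The smooth muscle contractile genes were 10 genes chosen by name, Mylk, Myl9, Myh11, Acta2, Actg2, Smtn, Cnn1, Tagln, Des and Synm, as a measure of muscle in scrapings of the jejunal mucosa. Every probe set whose only platform gene symbol was one of these names was taken, which gave 11 of 15866 probe sets on the Affymetrix rat array 230A (all 10 genes) and 5 of 15276 on the array 230B (5 genes), out of 13811 genes named on either. The study compared rats of a high Fe group with rats of a low Fe group, in samples whose titles all carry week 12, and the labels of the 230A samples add the keywords iron-deficiency and anemia. There were 3 samples in each group, every one run on both array types, for 12 arrays. Strain, age, sex and the iron content of the diets are not given in the labels. No label states that each sample was its own animal, and p-values therefore reflect the spread between samples, which may be technical only.

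Smooth muscle lies under the epithelium of the gut in the muscularis mucosae, in thin strands of the villus core and in vessel walls, and in the thick outer layers that a mucosal scrape is meant to leave behind. It contracts when calcium-calmodulin activates myosin light chain kinase (Mylk), which phosphorylates the regulatory light chain (Myl9) so that the myosin heavy chain (Myh11) pulls on smooth muscle actins (Acta2, Actg2). Calponin (Cnn1), transgelin (Tagln) and smoothelin (Smtn) bind the actin filaments, and desmin (Des) and synemin (Synm) form intermediate filaments. Some of these genes are not confined to smooth muscle: epithelial and endothelial cells make a long form of Mylk, and myofibroblasts and pericytes make Acta2. Serum response factor with its partner myocardin drives many of these genes through a sequence called the CArG box.

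The promoters of 3 members are shown because Acta2 is the textbook target of that factor and because Smtn and Des had the largest differences between the groups among the tested members with a promoter in the table used. The sequences are from RefSeq, build GRCr8, run 5′ to 3′ on the gene's strand, and span 250 bases before to 50 bases after an annotated start. Capitals mark CArG boxes that are exact or carry 1 mismatch in the inner stretch, and the E-box CAGCTG, a motif bound by basic helix-loop-helix factors.
Acta2 (chr1:241172454-241172753, minus strand): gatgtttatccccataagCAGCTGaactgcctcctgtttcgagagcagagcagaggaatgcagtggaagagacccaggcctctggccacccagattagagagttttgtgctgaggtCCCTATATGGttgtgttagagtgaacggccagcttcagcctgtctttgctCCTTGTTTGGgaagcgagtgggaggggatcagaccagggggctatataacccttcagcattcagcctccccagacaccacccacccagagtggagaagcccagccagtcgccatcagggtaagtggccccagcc
Smtn (chr14:82644465-82644764, minus strand): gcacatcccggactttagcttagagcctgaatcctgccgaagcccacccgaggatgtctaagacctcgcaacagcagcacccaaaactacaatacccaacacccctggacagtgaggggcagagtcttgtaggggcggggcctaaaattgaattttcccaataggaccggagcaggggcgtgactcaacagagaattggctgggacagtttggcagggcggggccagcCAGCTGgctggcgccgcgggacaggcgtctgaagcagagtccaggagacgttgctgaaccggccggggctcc
Des (chr9:84299376-84299675, plus strand): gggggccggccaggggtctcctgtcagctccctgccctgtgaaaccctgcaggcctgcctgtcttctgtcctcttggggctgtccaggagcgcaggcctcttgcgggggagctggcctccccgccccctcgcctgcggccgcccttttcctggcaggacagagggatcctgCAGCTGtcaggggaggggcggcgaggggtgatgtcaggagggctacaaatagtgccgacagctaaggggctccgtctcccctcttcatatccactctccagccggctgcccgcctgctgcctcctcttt

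The Acta2 window held 2 CArG boxes with 1 mismatch each, CCCTATATGG and CCTTGTTTGG, which begin 134 and 84 bases before the start. Of the 7 members with a promoter in the table, 1 had such a box (Acta2) and 0 an exact one. Tagln, Myh11 and Myl9 had no promoter in the table, and sequence outside these windows was not searched. Over all 33469 promoter windows of the table, searched on both strands, 9.42% held an exact box or one with 1 mismatch, and 1.64% an exact one. CAGCTG was in 4 of the 7 (Acta2, Smtn, Des and Cnn1) and in 15.06% of all windows, and did not overlap the boxes. These matches are descriptions of letters in a window and not measured binding.

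The array values are linear signals that had been scaled to 1 common mean per array type, so levels are compared within a probe set only. Array medians were 154.5 to 176.2 (230A) and 259.5 to 302.8 (230B), and precision is limited by having 6 arrays of each type. Differences are low Fe minus high Fe on the log2(signal + 16) scale, tested with limma over the 9519 and 9165 probe sets that remained after the dimmest 40% were left out. That filter had its boundary at signal 106 (230A) and 183 (230B). All 13 epithelial marker genes found on 230A were above it by their brightest probe set. Of the 10 contractile genes 7 were above it, and Actg2, Cnn1 and Tagln, which are among the defining smooth muscle markers, were below.

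On 230A, the contractile probe sets had higher mean signals in low Fe than in high Fe, with no overlap of the groups for Smtn, Des, Mylk and the untested Tagln, but 0 of the 7 tested passed the limma threshold of adjusted p 0.05 (lowest adjusted p 0.522). Over all tested 230A probe sets 9 passed, or 0.0945%. At an unadjusted p under 0.05, 3 of the 7 were higher in low Fe and 0 lower, where 3.17% and 3.51% of all tested probe sets were. The 3 were 5 when low Fe replicate 1 was left out, and 2 without either of the other low Fe arrays or without high Fe replicate 1 or 2. The groups did not overlap, with low Fe higher, for 3 of the 7 and for 5.61% of all. All 7 had log2 differences above 0, as had 46.9% of all, with a median of 0.43 over the 7 against -0.01 over all. The 7 are those that passed the filter, and Smtn and Des passed it through their low Fe signals, so these counts are not support for a shift. With no filter all 11 probe sets lay above 0, against 44.3% of all 15866. In bulk tissue, the number of muscle cells, the transcript per muscle cell and transcript from other cell types cannot be told apart.

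**Figure D1:**
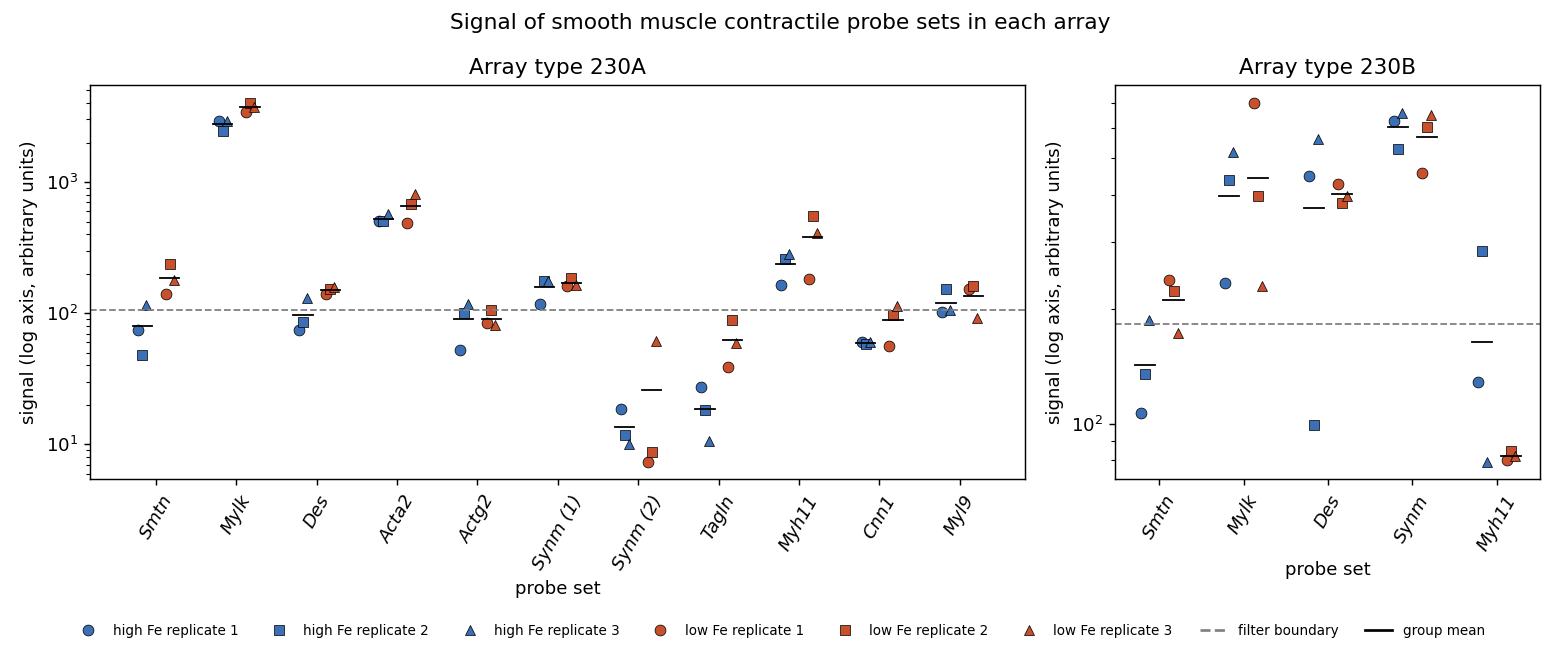
Signal (log axis, arbitrary units) of each contractile probe set on 230A (left) and 230B (right), high Fe in blue and low Fe in orange-red, with circle, square and triangle for replicates 1, 2 and 3, a short line at each group mean and a dashed line at the filter boundary. On 230A, Smtn, Mylk, Des and Tagln show no overlap between the groups, and on 230B every probe set overlaps.

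Mylk lay far above the filter boundary. Its 230A signals were 2899, 2436 and 2926 in high Fe and 3391, 4013 and 3730 in low Fe. Every low Fe array was above every high Fe array, and the spread within each group was narrow (SD 275 and 312). The log2 difference was 0.43 ± 0.13 (SE, n = 3 each), 1.35-fold, with a 95% interval of 0.14 to 0.72, an unadjusted limma p of 0.00843 and an adjusted p of 0.586.

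Myh11, the smooth muscle myosin heavy chain, read 164.4, 257.3 and 284.0 in high Fe and 181.8, 555.1 and 405.8 in low Fe. Low Fe replicates 2 and 3 were the highest, and low Fe replicate 1 lay within the high Fe range. The log2 difference was 0.56 ± 0.37 (adjusted p = 0.798), and it was 1.00 when low Fe replicate 1 was left out and 0.23 when replicate 2 was. Myl9, the regulatory light chain, read 102.8, 152.9 and 106.3 in high Fe and 153.3, 162.3 and 91.7 in low Fe. Here low Fe replicate 3 was the lowest of the 6 arrays, unlike for Myh11, and the groups overlapped. Its log2 difference was 0.14 ± 0.25 (adjusted p = 0.922), and it was 0.0016 when low Fe replicate 2 was left out and 0.37 when replicate 3 was.

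Acta2, smooth muscle alpha actin, read 501.8, 502.0 and 566.1 in high Fe and 490.9, 676.5 and 804.6 in low Fe. As for Myh11, low Fe replicates 2 and 3 stood above high Fe and replicate 1 did not. The log2 difference was 0.29 ± 0.19 (adjusted p = 0.789). Leaving out 1 array moved it between 0.14, for low Fe replicate 3, and 0.49, for replicate 1 of that group. A further tested 230A probe set is annotated to both Acta2 and Actc1, the cardiac actin, and so is no member. It read 121.5, 168.2 and 160.8 in high Fe and 127.8, 110.5 and 130.1 in low Fe, a log2 difference of -0.25 ± 0.19 (adjusted p = 0.818), opposite in sign to the Acta2 probe set.

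Actg2, the enteric smooth muscle gamma actin and the actin most typical of gut muscle, was under the filter boundary. Its 230A signals were 52.0, 99.9 and 118.5 in high Fe and 84.7, 106.5 and 81.5 in low Fe. The group means were near equal (90.1 ± 34.3 and 90.9 ± 13.6, SD), and with no filter the log2 difference was 0.06 ± 0.29.

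Smtn, an actin-binding protein of contractile smooth muscle cells, had the largest log2 difference of the tested members. Its 230A signals were 75.1, 48.3 and 114.9 in high Fe and 139.5, 238.5 and 179.5 in low Fe. The groups did not overlap, and the mean in high Fe, 79.4 ± 33.5, was too dim to reach the boundary of 106. The log2 difference was 1.11 ± 0.29, 2.16-fold, with a 95% interval of 0.45 to 1.77, an unadjusted p of 0.00422 and an adjusted p of 0.522. Leaving out 1 array gave 0.86 to 1.37.

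Tagln, transgelin, an actin-binding protein, was too dim to be tested. It read 27.2, 18.2 and 10.6 in high Fe and 39.0, 88.8 and 59.0 in low Fe. All low Fe arrays were above all high Fe arrays, at signals under the boundary of 106 throughout. With no filter its log2 difference was 1.15 ± 0.30 (unadjusted p = 0.00496, adjusted p = 0.629). At such signals this value depends on the 16 added before the log: it was 1.70 with 1 added and 0.60 with 64 added, alternatives chosen after seeing the data. Cnn1, calponin, was also too dim to be tested, at 60.1, 57.9 and 60.8 in high Fe and 56.1, 97.2 and 114.4 in low Fe. The high Fe arrays and low Fe replicate 1 were alike, and low Fe replicates 2 and 3 stood above them. With no filter the log2 difference of Cnn1 was 0.43 ± 0.26 (adjusted p = 0.828).

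Des, the muscle intermediate filament protein, read 74.2, 85.7 and 129.9 in high Fe and 140.4, 152.4 and 158.6 in low Fe on 230A. The groups did not overlap, though high Fe replicate 3 came close to low Fe replicate 1. The log2 difference was 0.59 ± 0.22, with a 95% interval of 0.10 to 1.08, an unadjusted p of 0.0228 and an adjusted p of 0.692. Synm, the partner filament protein synemin, read 118.5, 176.3 and 177.5 in high Fe and 162.6, 185.6 and 164.3 in low Fe. High Fe replicate 1 alone stood apart, as the lowest. The log2 difference was 0.13 ± 0.19 (adjusted p = 0.911), and -0.048 without that array. The second Synm probe set on 230A was dim, from 7.4 to 61.5, with its highest value in low Fe replicate 3.

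**Figure D2:**
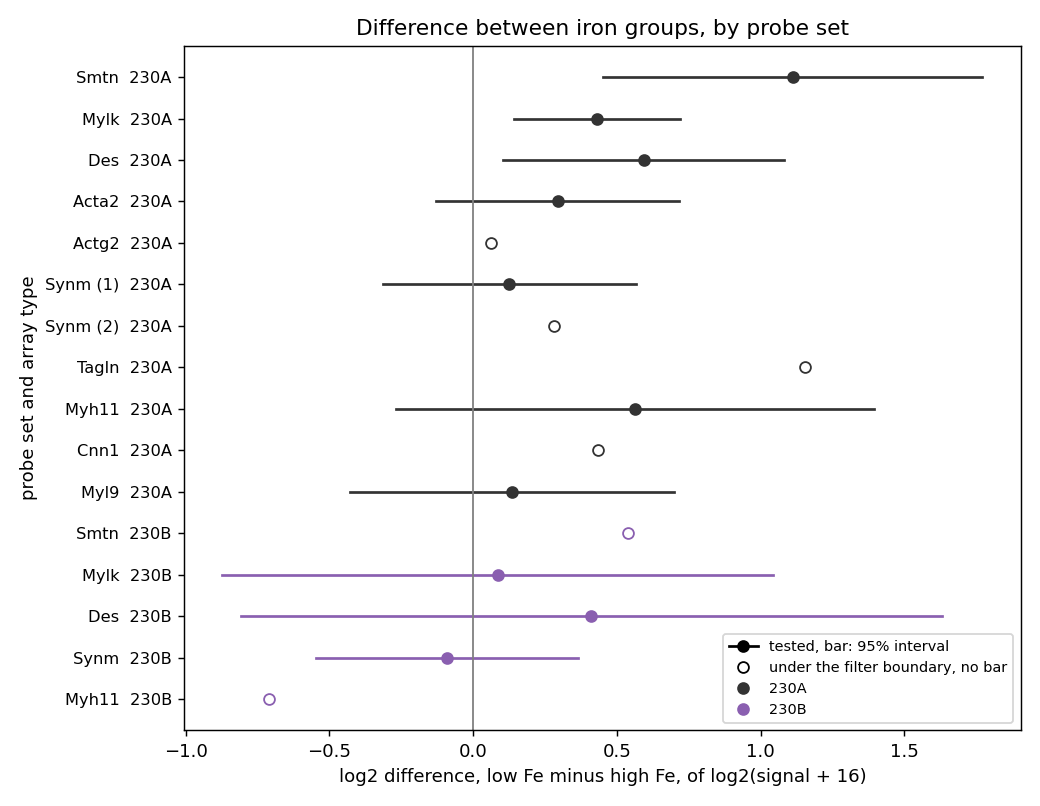
Log2 difference, low Fe minus high Fe, of each contractile probe set on the log2(signal + 16) scale; filled points were tested and carry 95% limma intervals, open points were under the filter boundary. The intervals of Smtn, Mylk and Des on 230A lie above 0 before adjustment, and those of all tested 230B probe sets include 0.

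The 230B array carries other probe sets of 5 of these genes, and their differences were mixed in sign and wide in error. Whether the array types differ was not tested, since they were scaled apart. Of the 5, 3 were tested, 0 passed the limma threshold (0% of all tested 230B probe sets did), 0 had an unadjusted p under 0.05 (10.2% of all did) and 0 had groups without overlap (17.4% of all). Of the 3 tested, 2 had log2 differences above 0, as had 45% of all. The lowest adjusted p was 0.784.

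Mylk on 230B read 233.9, 439.1 and 518.5 in high Fe and 698.9, 397.1 and 229.8 in low Fe. The highest and the lowest array were both low Fe, and the log2 difference of 0.09 ± 0.42 had a 95% interval of -0.87 to 1.04. That interval includes the 230A value. Des on 230B read 449.8, 98.9 and 561.3 in high Fe and 426.3, 381.2 and 397.1 in low Fe. High Fe replicate 2 stood far below the others and set the sign: the log2 difference was 0.41 ± 0.53 with that array and -0.31 without it.

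Synm on 230B read 625.9, 529.8 and 655.6 in high Fe and 456.6, 602.8 and 649.2 in low Fe, a log2 difference of -0.09 ± 0.20. Smtn on 230B was under the filter boundary at 106.6, 135.1 and 186.9 in high Fe and 238.5, 223.6 and 173.0 in low Fe. Its log2 difference was 0.54 ± 0.34 with no filter (adjusted p = 0.637). Myh11 on 230B, also under the boundary, read 128.6, 285.2 and 79.4 in high Fe and 80.3, 84.5 and 82.2 in low Fe. The low Fe arrays were alike and high Fe replicate 2 was the highest, the opposite of the 230A probe set, with a log2 difference of -0.71 ± 0.47 with no filter (adjusted p = 0.653).

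Across the 11 probe sets of 230A, low Fe replicate 2 was the highest array for 6, low Fe replicate 3 for 4 and high Fe replicate 3 for 1. The lowest array was high Fe replicate 1 for 4, low Fe replicate 1 for 3, high Fe replicate 2 for 2, and high Fe replicate 3 and low Fe replicate 3 for 1 each. As a mean over the 7 tested genes of log2 values centred on each gene's own mean, the high Fe arrays stood at -0.41, -0.26 and -0.02 and the low Fe arrays at -0.01, 0.46 and 0.24. Low Fe replicate 1 was thus level with high Fe replicate 3. High Fe replicates 1 and 2 lay about as far below 0 as low Fe replicates 2 and 3 lay above it. The summed signal of the 10 genes without Mylk, whose probe set gave more signal than the others together, ran from 1176 to 1569 in high Fe and from 1448 to 2263 in low Fe. Such a sum is weighted by its brightest probe sets, here that of Acta2, and is compared only between arrays for the same list. On 230B the same mean over 3 genes was -0.08, -0.54 and 0.41 in high Fe and 0.26, 0.07 and -0.13 in low Fe. The samples ranked differently there: high Fe replicate 3 was the highest.

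**Figure D3:**
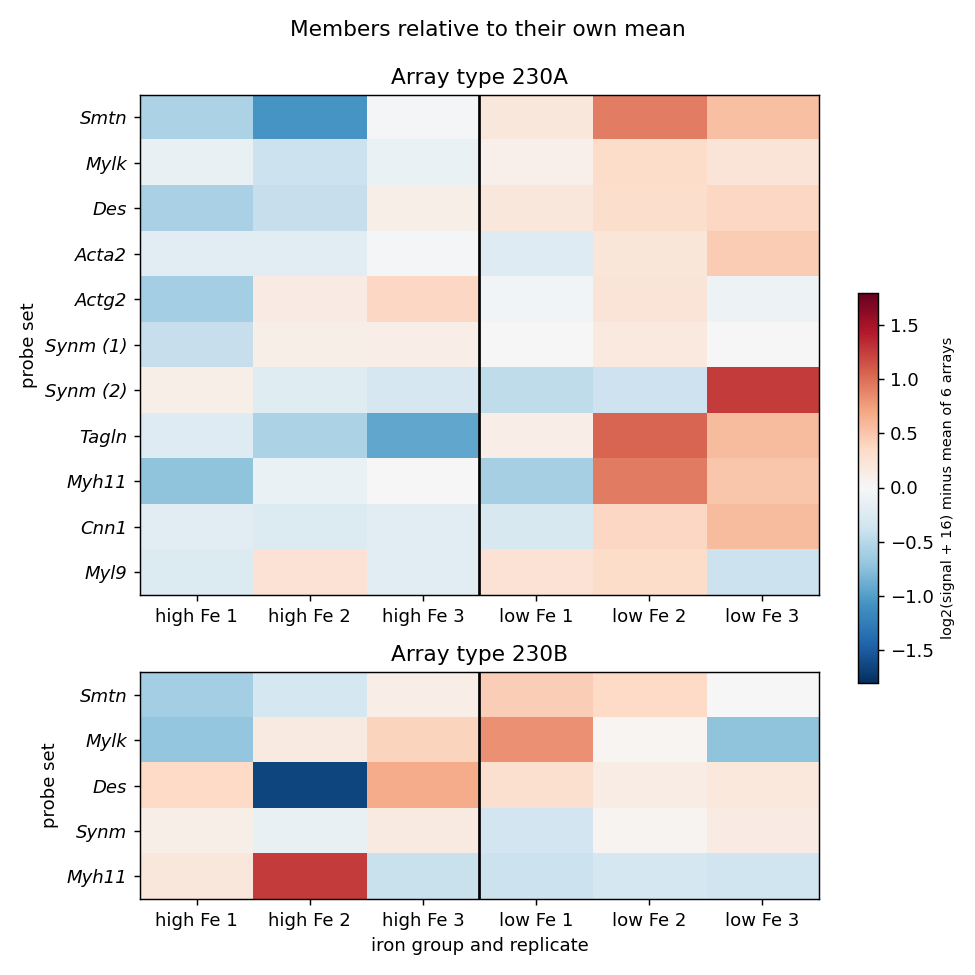
Log2(signal + 16) of each contractile probe set minus its mean over the 6 arrays of a type, by iron group and replicate (red above the mean, blue below). On 230A the red cells gather in low Fe replicates 2 and 3, chiefly in Smtn, Tagln, Myh11, Cnn1 and Acta2, and on 230B they do not.

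A sign of RNA quality differed among the arrays. The 5'/3' signal ratio of the GAPDH control probe sets on 230A was 0.794 to 0.811 in 3 arrays, low Fe replicates 2 and 3 together with high Fe replicate 1, and 0.876 to 0.922 in the other arrays. On 230B it was 0.873 in low Fe replicate 3, close to the higher arrays there, so the sets hold for 230A. Within the first set (1 high Fe and 2 low Fe arrays, no test) all 11 contractile probe sets had differences above 0. Within the second (2 high Fe and 1 low Fe array) 5 of 11 did, namely Smtn (0.76), Tagln (0.87), Des (0.36), Mylk (0.34) and Myl9 (0.24). The share of all probe sets above 0 within each set was not computed, so these counts cannot be called particular to the members. High Fe replicate 1, the only high Fe array of the first set, was also the lowest 230A array for the epithelial and some other lists, though not for all. Myh11 gave 1.44 in the first set and -0.53 in the second, Acta2 0.54 and -0.12, and Cnn1 0.67 and -0.06. The same ratio of beta-actin was 0.0539 in low Fe replicate 3 and 0.591 to 0.836 in the other 230A arrays. On 230B it was likewise 0.0473 in low Fe replicate 3 and 0.499 to 0.896 in the others. The part of RNA quality in these differences was not tested beyond these values and a fit with the GAPDH sets as a block. In that fit the median log2 difference of the 7 tested members was 0.38, against 0.43 without the block, all 7 lay above 0, 3 had an unadjusted p under 0.05 and 0 passed after adjustment.

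Other genes of the contractile apparatus and its cytoskeleton, a list of 31 of which 19 were tested on 230A, were spread more evenly: 12 lay above 0 and 7 below, with a median log2 difference of 0.05. Over all 7051 named tested genes 49.6% lay above 0 and the median was -0.0017. By the limma adjusted p, 0 of the 19 passed (0.0851% of all named genes did), and at an unadjusted p under 0.05, 4 were higher and 0 lower, against 3.36% and 3.16% of all. The 4 were Ldb3, a Z-disc PDZ-LIM protein (0.63 ± 0.18), Pdlim3, another PDZ-LIM protein (0.82 ± 0.26), Flna, the actin cross-linker filamin A (0.63 ± 0.21), and Actn1, the cross-linker alpha-actinin (0.56 ± 0.20), with adjusted p from 0.578 to 0.681. Pdlim3 read 99.2, 158.7 and 206.7 in high Fe and 219.2, 308.2 and 308.5 in low Fe. Its groups did not overlap. Flna read 162.2, 259.1 and 224.4 in high Fe and 267.6, 376.1 and 375.6 in low Fe, likewise without overlap and highest in low Fe replicates 2 and 3. Flna and Actn1 are made by many cell types.

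On 230B, 8 genes of that list were tested and 1 lay above 0, with a median of -0.29 against 0.01 over all 4059 named genes, of which 50.8% lay above 0. None of the 8 passed by limma, as none of all named 230B genes did (0%), and 1 was lower at an unadjusted p under 0.05 (4.11% of all). This was Tln1, the focal adhesion protein talin (-0.49 ± 0.18, adjusted p = 0.456). Ldb3 gave -0.38 ± 0.21 there, against 0.63 for its 230A probe set.

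The contraction signalling list, with the RhoA and calcium pathways, lay mostly below 0 on 230A. Of 12 tested genes 4 lay above 0, the median was -0.15, and 0 passed the adjusted or the unadjusted threshold in either direction. Of all named 230A genes 49.6% lay above 0 and 0.0851% passed after adjustment. At the unadjusted threshold 3.36% were higher and 3.16% lower, so 0 of 12 is near these shares. Pde5a, the cyclic GMP phosphodiesterase that opposes relaxation, gave -0.45 ± 0.24, Chrm3, the muscarinic receptor that triggers gut muscle contraction, -0.25 ± 0.17, Rhoa, the GTPase that raises calcium sensitivity, -0.19 ± 0.13, and Ppp1cb, a myosin phosphatase subunit, -0.20 ± 0.15. The cell types that gave these transcripts were not separated, so the values are not a measure of muscle alone. Chrm3 read 680.4, 738.8 and 757.8 in high Fe and 762.3, 502.3 and 579.7 in low Fe. Its lowest arrays, low Fe replicates 2 and 3, were those in which Myh11 and Acta2 were highest. On 230B 5 of 8 tested signalling genes lay above 0 (median 0.10), and Ryr2, a calcium release channel, gave -0.77 ± 0.33 (unadjusted p = 0.0487, adjusted p = 0.487), and Irag1, a target of cyclic GMP kinase in smooth muscle, 0.25 ± 0.16.

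In the list of smooth muscle transcription factors, 6 genes were tested on 230A with 3 above 0 (median 0.01). On 230B 5 were tested with 4 above 0 (median 0.15). Of all named genes 49.6% (230A) and 50.8% (230B) lay above 0. In the list 0 passed on either type, adjusted or unadjusted. The list was not split into activators and repressors (it includes Klf4 and Elk1), so these counts give no direction for the factors' effect. Mrtfa, a coactivator of serum response factor, gave 0.19 ± 0.14 on 230A. Myocd, myocardin, on 230B read 290.3, 440.2 and 321.0 in high Fe and 296.0, 230.4 and 229.3 in low Fe. Low Fe replicates 2 and 3 were its lowest arrays, and the log2 difference was -0.44 ± 0.25 (adjusted p = 0.563).

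Markers of other cells that a scrape can hold were read beside these genes. Of 10 tested fibroblast markers on 230A, 6 lay above 0 and 4 below (median 0.03), where 49.6% of all named tested genes lay above 0. One of the 10, Col1a2, a collagen I chain, had an unadjusted limma p under 0.05 and did not pass (0.57 ± 0.19, adjusted p = 0.653). Of all named genes, 3.36% were higher in low Fe at that unadjusted threshold. It read 79.6, 91.6 and 94.7 in high Fe and 116.2, 154.2 and 151.1 in low Fe, again highest in low Fe replicates 2 and 3. The summed signal of the 15 fibroblast markers on 230A ran from 2140 to 2699 in high Fe and from 2392 to 2787 in low Fe. Of 13 epithelial markers on 230A, 9 lay above 0 and 4 below (median 0.12). The 2 with an unadjusted limma p under 0.05 were Krt19, a simple-epithelium keratin, and Cldn3, a claudin of tight junctions. Krt19 gave 0.43 ± 0.17 and Cldn3 0.27 ± 0.11 (unadjusted p 0.0362 and 0.0427, adjusted p 0.727 and 0.730). The epithelial sum on 230A ran from 93763 to 133827 in high Fe and from 106358 to 119095 in low Fe. On 230B the 2 tested epithelial markers differed in sign, Vil1 at -0.16 ± 0.14 and Cldn15 at 0.17 ± 0.15.

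Of the skeletal and cardiac muscle markers, 1 of 5 tested lay above 0 on 230A (median -0.28) and 0 of 2 on 230B, and 0 passed on either type. Of all named genes 49.6% and 50.8% lay above 0, and 0.0851% and 0% passed. The 230A median is the value of Myh1, whose probe set read 5607 to 8238. Whether that probe set measures skeletal myosin here was not tested. Tnni2, Myog and Ckm read 56.2 to 169.6, near the filter boundary, and Ckm lay above 0 (0.20 ± 0.21). Enteric neuron and glia markers, which mark the nerve plexuses of the gut wall, were mostly under the boundary: 3 of 15 were tested on 230A. Gfap, a glial filament protein, had a log2 difference of 0.07 ± 0.17 and Nos1, the neuronal nitric oxide synthase, 0.03 ± 0.31. S100b, a glial protein, read 104.6, 284.8 and 140.7 in high Fe and 110.0, 93.1 and 95.1 in low Fe, with high Fe replicate 2 apart from the others. Its log2 difference was -0.63 ± 0.31 (adjusted p = 0.758), and -0.26 without that array. Etv1, a transcription factor of the pacemaker cells called interstitial cells of Cajal, gave -0.71 ± 0.19 on 230B (unadjusted p = 0.0051, adjusted p = 0.454), and Ano1, their chloride channel, 0.03 ± 0.26. Of the pericyte and endothelial markers, 1 on 230A and 2 on 230B were tested, all below 0. Notch3 gave -0.08 ± 0.17 on 230A, and Tek -0.40 ± 0.23 and Kdr -0.04 ± 0.30 on 230B. Notch3 lay above 0 without low Fe replicate 2 (0.011), and Kdr without high Fe replicate 2 (0.14). Etv1 read 634.2, 482.0 and 602.9 in high Fe and 323.3, 352.6 and 350.2 in low Fe. Its groups did not overlap, as for 17.4% of all tested 230B probe sets, in the direction opposite to Smtn and Mylk. The 1 gene of the interstitial cell of Cajal list on 230A was under the filter boundary. By the mean of centred log2 values over tested genes, high Fe replicate 1 was the lowest 230A array for the contractile genes (-0.41). It was also lowest for the other contractile apparatus (-0.11), fibroblast (-0.24), neuron and glia (-0.36) and epithelial (-0.22) lists. For contraction signalling (-0.14), transcription factors (0.06), skeletal and cardiac (0.09) and pericyte and endothelial markers (-0.14, 1 gene) it was not. The part of the other cell types in the contractile differences was not tested.

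**Figure D4:**
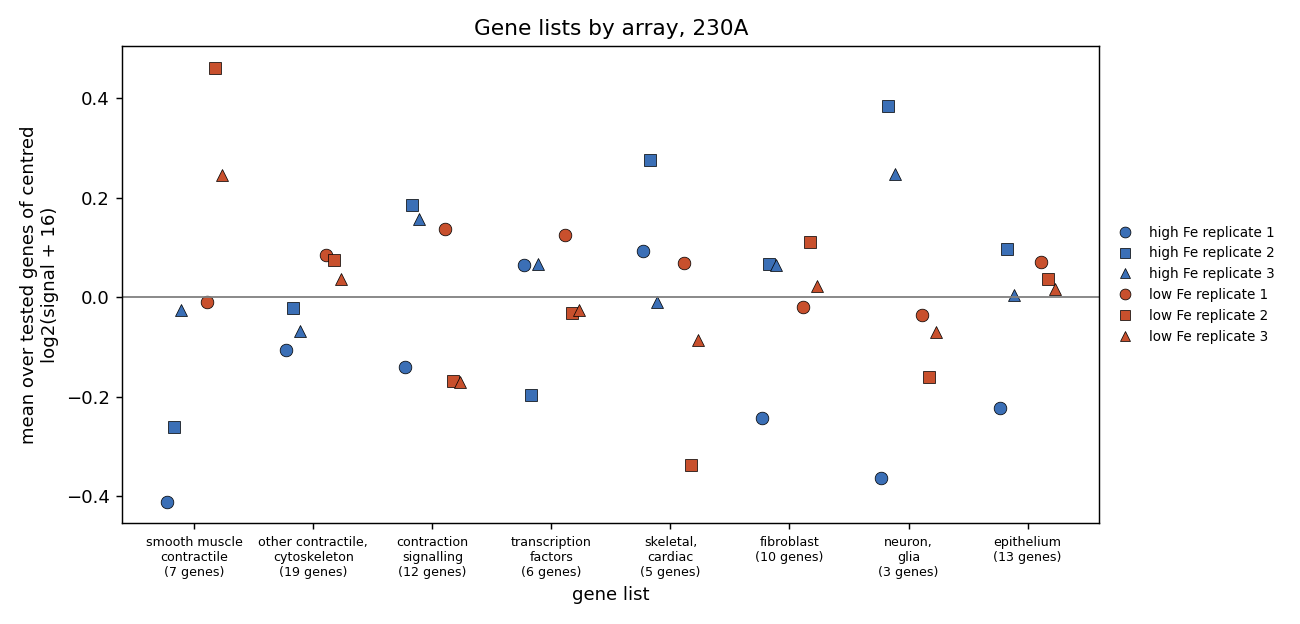
Mean over the tested genes of each list of log2(signal + 16) centred on the gene's own mean, for each 230A array (blue high Fe, orange-red low Fe; circle, square and triangle for replicates 1, 2 and 3; gene numbers under the names). The contractile genes span from -0.41 to 0.46 with low Fe replicates 2 and 3 highest, and in contraction signalling those 2 arrays are the lowest.

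Over the 6 arrays of 230A, the genes whose pattern was most like the mean of the 7 tested contractile genes were Cxcl14, a chemokine (Pearson r = 0.99), Prim1, a DNA primase subunit (0.99), Tm9sf3 (0.99), Thumpd1 (0.98), Mki67, the proliferation marker (0.98), Mif, a cytokine (0.98), Thsd4 (0.98) and Pop5, a ribonuclease subunit (0.97). None of these 8 is in the muscle lists. The members' own r, which is not independent of the mean, ran from 0.19 for Myl9 to 0.92 for Smtn. Of 7044 other genes, 88 had an r over 0.9, and all values share the same 6 arrays, so these are descriptions with no test.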

How the data were processed

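RNA from jejunal mucosal scrapings was measured on 230A and 230B arrays, 3 high Fe and 3 low Fe samples each, grouped by title. The tables deposited by the authors hold 1 linear intensity per probe set and array. No label or header names the software behind them. Judged by the values, each array was scaled to a mean of 500.1 (230A) or 500.2 (230B) after 2% of probe sets at each end were left out. Names come from the platform annotation: 12783 of 15866 and 7564 of 15276 probe sets had 1 symbol, of which 12748 and 7524 matched RefSeq genes.

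Values were taken as log2(signal + 16). Per type, probe sets in the lowest 40% by mean log2 value were dropped. Each type was fitted on its own in limma 3.58.1 (R 4.3.3; lmFit, and eBayes with trend), with Benjamini-Hochberg adjustment over all its tested probe sets. The brightest tested probe set stands for a gene in list counts. Means and SDs are of linear signals. The deviations of same-numbered samples showed no positive correlation (-0.36 to -0.10), so no block was used. Members, lists and tests were chosen with earlier results of these data known. Named were all member probe sets, up to 4 genes per list by smallest p, of which some are given here, and the 8 genes most like the members. The CArG and E-box motifs were picked with the values in view. Simulated data served to test the fits. Alternatives were other pseudocounts, filters, scalings and eBayes settings, blocks, leaving out each array, and a threshold of 0.1.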

Additional observations from a re-analysis of the deposited data

How the results depend on the processing

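Under the alternatives run, the count of contractile probe sets past adjusted p 0.05 stayed at 0 on both array types, and the lowest adjusted p of any was 0.0755, for scaling to the hybridization controls. That scaling moved the median log2 difference of all tested 230A probe sets to 0.29 and the members' median from 0.43 to 0.75, and all 7 remained above the median of all. The members' median ran from 0.26 to 0.49 without 1 array. All 7 tested 230A probe sets stayed above 0 except Synm, which ran from -0.048 (without high Fe replicate 1) to 0.21 without 1 array. On 230B, leaving out 1 array gave -0.30 to 0.47 for Mylk (below 0 without replicate 1 of either group, -0.24 for high Fe), -0.31 (without high Fe replicate 2) to 0.85 for Des, and -0.19 to 0.056 (without low Fe replicate 1) for Synm. Synm on 230B was also above 0 with a common median (0.038) and after scaling to the hybridization controls (0.14). The count over all 230A probe sets, 9, was 28 after scaling to the hybridization controls, 14 with the GAPDH sets as a block, 15 at a threshold of 0.1 and 5 to 21 without 1 array. With the replicate number as a block, which the data do not bear out as a pairing, it was 4, and the members' median was 0.43. Causes were not tested. Signals near or under the filter boundary limit Smtn, Des, Tagln, Cnn1 and Actg2.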
